A study of Schizosaccharomyces pombe with 4 samples.

Results

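The 10 genes described here encode actin and the core of the contractile ring of the fission yeast Schizosaccharomyces pombe. They are act1, cdc3, adf1, cdc8, myo2, cdc4, rlc1, cdc12, cdc15 and mid1, taken by name from a count table of 7049 genes. All 10 passed the filter on low counts, which left 6813 genes for the test. RNA was sequenced after ribosomal RNA depletion from 2 libraries of a wild-type strain and 2 of delta4dus, in which all 4 dihydrouridine synthase genes are deleted. Both strains were grown in rich YES medium at the same temperature, and the labels give no further allele for either. The comparison asks how transcript levels of these genes differ without the enzymes that make dihydrouridine from uridine in RNA. Whether the 2 replicates of a genotype came from separate cultures is not in the labels. The spread between these libraries can therefore be technical. The p-values rest on that spread together with an estimate of variability that the fit shares across genes.

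Fission yeast divides by closing a ring of actin filaments and myosin II at the middle of the cell. The anillin-related protein Mid1 marks the division plane, the formin Cdc12 nucleates the filaments from profilin-bound actin, and the F-BAR protein Cdc15 ties the ring to the membrane. Myosin II then pulls on filaments coated with tropomyosin, while cofilin severs and turns them over. The same pool of actin also forms endocytic patches, built by the Arp2/3 complex, and cables, built by the formin For3.

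Library totals were 264948323 to 495098038 counts, of which ribosomal RNA genes took 84.7% to 90.7%, the most in delta4dus replicate 2. That library also had the lowest TMM factor, 0.662 against 1.09 to 1.23 in the other 3. At the deleted loci, dus1, dus2 and dus3 passed the test with log2 fold changes of −3.86, −2.95 and −1.56. The gene dus4 did not, at −1.23 (adjusted p = 0.626, edgeR, unadjusted p = 0.0246). Its raw counts were 528 and 467 in the wild-type libraries, against 410 and 140 in delta4dus replicates 1 and 2.

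The promoters of cdc15 and cdc4 are shown because, of the 10, these alone hold the forkhead word GTAAACA. Forkhead factors are known in fission yeast to drive genes of mitosis and cytokinesis, cdc15 among them. Each stretch runs from 250 bases before to 50 bases after the annotated gene start in RefSeq's ASM294v3, read 5′ to 3′ on the gene's strand, and capitals mark the word on either strand. The cdc15 stretch is chrI:1402887-1403186 on the minus strand, and the cdc4 stretch is chrI:5328938-5329237 on the plus strand.
cdc15: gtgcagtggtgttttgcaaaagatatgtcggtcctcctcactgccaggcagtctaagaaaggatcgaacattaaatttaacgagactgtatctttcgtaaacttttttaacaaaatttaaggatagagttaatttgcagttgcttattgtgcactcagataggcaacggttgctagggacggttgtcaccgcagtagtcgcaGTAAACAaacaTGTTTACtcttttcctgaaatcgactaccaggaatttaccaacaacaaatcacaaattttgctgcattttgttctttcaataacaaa
cdc4: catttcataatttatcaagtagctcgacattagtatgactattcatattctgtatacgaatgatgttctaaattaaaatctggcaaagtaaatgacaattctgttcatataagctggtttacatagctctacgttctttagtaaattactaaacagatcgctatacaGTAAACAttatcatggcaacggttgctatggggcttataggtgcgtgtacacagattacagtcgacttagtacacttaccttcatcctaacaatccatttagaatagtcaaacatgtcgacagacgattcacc
In cdc15 the word begins at positions −48 and −37 from the gene start, on opposite strands, and in cdc4 at −83. It is found in 16.5% of 5103 promoters of coding genes. The 6-base word TATAAA, searched on both strands like the others, was in the promoters of cdc3, rlc1 and adf1, against 48.1% of all promoters. CAGTCAC, the HomolD word, was in none of the 10 and in 4.72% of all. TATAAA and GTAAACA did not overlap each other in these promoters. For mid1 the stretch searched, chrIII:1150386-1150685, lies inside the deposited gene, 1147316 to 1151324. The absence of the words there holds for the ASM294v3 gene start only. Among the 45 pairs of promoters, cdc4 and cdc15 also shared the longest identical stretch, GGCAACGGTTGCTA, 14 bases long, where the next longest was 11. It begins at −69 in cdc4 and −89 in cdc15, and the only other promoter window that holds it belongs to not1, the neighbour of cdc15. The pair was picked out after the sequences were seen, and a shared word is a description, not a binding site.

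Levels were compared between genes as TMM-normalised counts per kilobase of the deposited gene length, where TMM is edgeR's scaling of the libraries. The members span a wide range that was alike in all 4 libraries. From highest to lowest mean they were act1, adf1, cdc3, cdc8, cdc4, cdc15, mid1, myo2, rlc1 and cdc12, and 8 of the 10 held the same rank in every library. The mean of act1 was 118 times that of cdc12, the lowest of the 10. In wild-type, act1 ranked 103 of 5104 coding genes, adf1 190, cdc3 211 and cdc8 339, all at or above percentile 93.4. The remaining members lay lower: cdc4 stood at percentile 81.5, cdc15 at 66.6, mid1 at 59.0, myo2 at 45.2, rlc1 at 34.1 and cdc12 at 28.0.

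**Figure D1:**
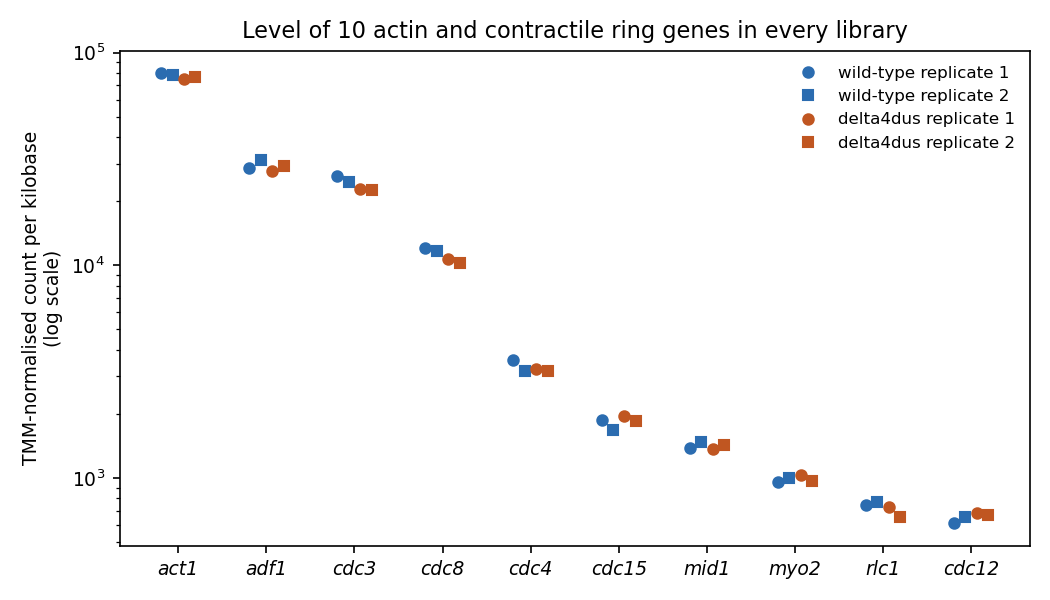
TMM-normalised counts per kilobase of deposited gene length (log axis) for the 10 genes, ordered by their mean, with 1 point per library, circles for replicate 1 and squares for replicate 2. The 4 points of a gene lie close together, and of neighbouring genes only rlc1 and cdc12 overlap.

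The ranges of neighbouring genes in this order did not overlap over the 4 libraries, except for rlc1 (656.6 to 769.6) and cdc12 (611.7 to 684.8), which changed places in delta4dus replicate 2. The steps were 2.65-fold from act1 to adf1, 1.21-fold from adf1 to cdc3, 2.16-fold from cdc3 to cdc8 and 3.38-fold from cdc8 to cdc4. The order depends in part on the gene models. With coding length in its place, rlc1 ranked above myo2 and the other 8 kept their ranks. The deposited length of cdc4 is 3.83 times its coding length, the largest factor of the 10, against 1.07 for cdc12. Per kilobase of coding length the step from cdc8 to cdc4 was smaller, with means of 22625 and 12617.5. Percentiles were taken with the deposited length only.

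No member passed the test between the genotypes with genotype as the only term. By the quasi-likelihood test of edgeR, adjusted over all genes by Benjamini-Hochberg, 0 of the 10 had an adjusted p under 0.05, where 0.0734% of all 6813 genes tested did, namely 1 higher and 4 lower. At an unadjusted p under 0.05, 2 members were lower and 0 higher in delta4dus, against 4.02% of all genes lower and 3.55% higher. DESeq2 called 0 of the 10 as well. The log2 fold changes, delta4dus over wild-type, ran from −0.18 to 0.10 with a median of −0.07, and 7 of 10 were below 0. The median over all genes tested was 0.00, and 56.5% of 5059 coding genes tested were below 0. All 10 intervals lay within 0.5 of 0 on the log2 scale.

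**Figure D2:**
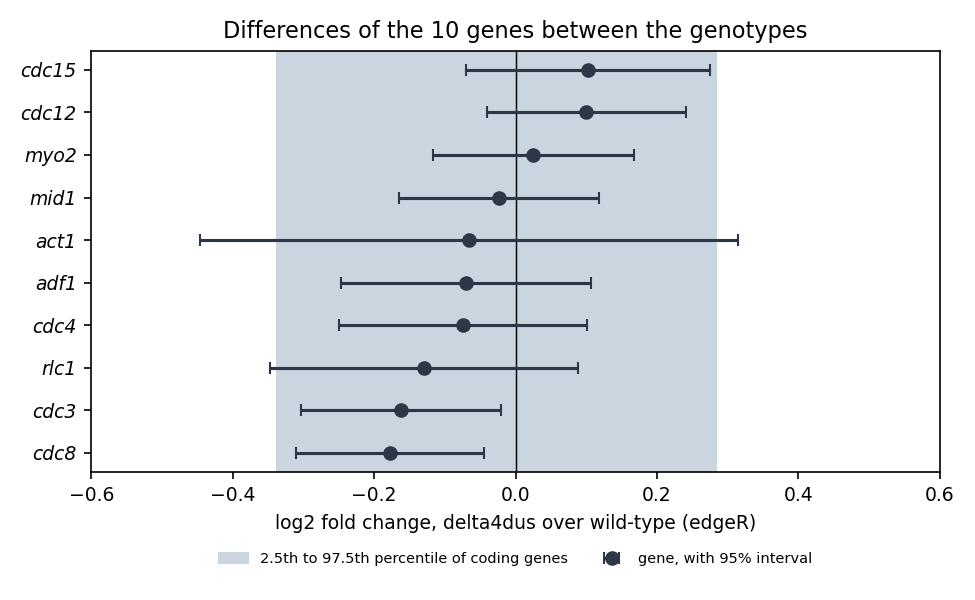
Log2 fold change of each gene, delta4dus over wild-type, with its 95% interval from edgeR. The grey band spans the middle 95% of coding genes, −0.34 to 0.28; all 10 point estimates lie inside it, and the intervals of cdc8 and cdc3 lie below 0.

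Of the 10, the genes of tropomyosin and profilin had the smallest p-values. Gene positions are those of the build ASM294v2. Tropomyosin, the coiled-coil protein Cdc8 that coats ring and cable filaments, is encoded by cdc8 (SPAC27F1.02c, chromosome I, 4319247 to 4320285, minus strand, 2 exons). Its normalised counts were 11747 and 11452 in the wild-type libraries, against 10459 and 10055 in the delta4dus ones. Both delta4dus libraries lay below both wild-type libraries, and the gap exceeded the spread within either genotype. The means were 11599 ± 208 and 10257 ± 285 (SD, n = 2 libraries each). This is −0.18 on the log2 scale (SE 0.0532, 95% interval −0.31 to −0.04, unadjusted p = 0.018), and it did not pass over all genes (adjusted p = 0.626, edgeR).

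Profilin, which binds actin monomers and feeds them to formins, is encoded by cdc3 (SPAC4A8.15c, chromosome I, 2578956 to 2579514, minus strand, 3 exons). Its normalised counts were 11890 and 11171 in the wild-type libraries, against 10348 and 10267 in the delta4dus ones. As for tropomyosin, the delta4dus libraries were the lower 2 of the 4. On the log2 scale delta4dus differed from wild-type by −0.16 (SE 0.0563, 95% interval −0.30 to −0.02, unadjusted p = 0.0312), which did not pass either (adjusted p = 0.628, edgeR).

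The actin gene act1 (SPBC32H8.12c, chromosome II, 1475485 to 1477317, minus strand, 1 exon) is the single actin gene of this yeast. Its normalised counts were 146437 and 143868 in the wild-type libraries, against 137227 and 140205 in the delta4dus ones. The delta4dus libraries were again the lower ones, by a log2 fold change of −0.07 that did not pass (95% interval −0.45 to 0.32, adjusted p = 0.941, edgeR). The interval of act1 was the widest of the 10, although its libraries differed little, with SDs of 1.25% and 1.52% of the mean. The fit gave genes at its abundance a dispersion of 0.038, against 0.00979 to 0.013 at the abundances of the other 9.

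Cofilin, which severs actin filaments, is encoded by adf1 (SPAC20G4.06c, chromosome I, 4825257 to 4826099, minus strand, 3 exons). Its normalised counts were 17996 and 19635 in the wild-type libraries, against 17466 and 18389.7 in the delta4dus ones. The groups overlapped, with delta4dus replicate 2 above wild-type replicate 1. Its log2 fold change was −0.07 (95% interval −0.25 to 0.11, adjusted p = 0.871, edgeR).

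The myosin II genes did not pass either. The heavy chain, the motor of the ring, is encoded by myo2 (SPCC645.05c, chromosome III, 1233231 to 1238262, minus strand, 1 exon). Its normalised counts were 4828 and 5002 in the wild-type libraries, against 5164 and 4836 in the delta4dus ones. The groups overlapped, since delta4dus replicate 2 lay below wild-type replicate 2. The fitted log2 fold change was 0.03 (95% interval −0.12 to 0.17, adjusted p = 0.94, edgeR).

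The essential light chain, a protein of the calmodulin family that binds the myosin neck, is encoded by cdc4 (SPAP8A3.08, chromosome I, 5329177 to 5331057, plus strand, 5 exons). Its normalised counts were 5794 and 5156 in the wild-type libraries, against 5277 and 5122 in the delta4dus ones. Wild-type replicate 1 stood above the other 3 libraries, and the groups overlapped. It had a log2 fold change of −0.07 (95% interval −0.25 to 0.10, adjusted p = 0.847, edgeR), and without wild-type replicate 1 it was 0.012.

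The regulatory light chain rlc1 (SPAC926.03, chromosome I, 3887243 to 3888497, plus strand, 1 exon) had the fewest reads of the 10, with raw counts of 912, 790, 1192 and 741 in the order wild-type replicates 1 and 2, then delta4dus replicates 1 and 2. The normalised counts were 935 and 966 in the wild-type libraries, against 912 and 824 in the delta4dus ones. The groups did not overlap, but delta4dus replicate 1 lay nearer to the wild-type libraries than to delta4dus replicate 2. The log2 fold change of −0.13 (95% interval −0.35 to 0.09) did not pass (adjusted p = 0.779, edgeR).

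The genes of the nucleator and the membrane scaffold had values above 0 that did not pass, and that of the division plane marker lay near 0. The formin gene cdc12 (SPAC1F5.04c, chromosome I, 283287 to 289200, plus strand, 1 exon) had normalised counts of 3617 and 3857 in the wild-type libraries, against 4050 and 3962 in the delta4dus ones. Both delta4dus libraries were above both wild-type libraries, and cdc12 was the 1 member of which this was so. Its log2 fold change of 0.10 (95% interval −0.04 to 0.24) did not pass (adjusted p = 0.727, edgeR).

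The F-BAR protein gene cdc15 (SPAC20G8.05c, chromosome I, 1399200 to 1402965, minus strand, 4 exons) had normalised counts of 6448 and 5826 in the wild-type libraries, against 6784 and 6392 in the delta4dus ones. The groups overlapped, since wild-type replicate 1 exceeded delta4dus replicate 2. The log2 fold change was 0.10 (95% interval −0.07 to 0.27, adjusted p = 0.779, edgeR), and it ran from 0.03 to 0.18 when single libraries were left out.

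The anillin-related gene mid1 (SPCC4B3.15, chromosome III, 1147316 to 1151324, minus strand, 1 exon) had normalised counts of 5518 and 5881 in the wild-type libraries, against 5499 and 5716 in the delta4dus ones. In both genotypes replicate 2 was the higher library, and the groups overlapped. The log2 fold change was −0.02 (95% interval −0.17 to 0.12, adjusted p = 0.944, edgeR).

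The groups did not overlap in 5 members: cdc8, cdc3, act1 and rlc1 were lower in delta4dus and cdc12 was higher. Of all genes tested, 19.7% were lower and 19.0% higher without overlap. Within a genotype the 2 libraries of a member differed by a median of 0.09 (wild-type) and 0.06 (delta4dus) on the log2 scale. The fitted differences between genotypes had a median size of 0.09 for the members and 0.09 over all genes tested. These compare 2 libraries with 2, so they are not on a par with differences between single libraries. Replicate 1 was the higher library in both genotypes for cdc8, cdc3, cdc4 and cdc15, and replicate 2 for mid1 and adf1; in the other 4 the higher library had a different number in each genotype.

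Ratios between members within a library do not depend on how the libraries are scaled, and were given as counts per kilobase of 1 gene over another. With 2 libraries against 2 a two-sided exact permutation test cannot go below p = 0.333, so these are descriptions. Of single genes tested, 19.7% were lower and 19.0% higher without overlap, and the share among ratios of other gene pairs was not taken. For profilin and tropomyosin relative to actin the delta4dus libraries were the lower ones. The ratio of cdc3 to act1 was 0.328 and 0.314 for wild-type, against 0.304 and 0.296 for delta4dus, and that of cdc8 to act1 was 0.15 and 0.149 against 0.143 and 0.134. The differences of the means, delta4dus relative to wild-type, were −6.43% and −7.44%. For cofilin to actin the genotypes overlapped, with ratios of 0.358 and 0.398 for wild-type, against 0.371 and 0.382 for delta4dus.

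**Figure D3:**
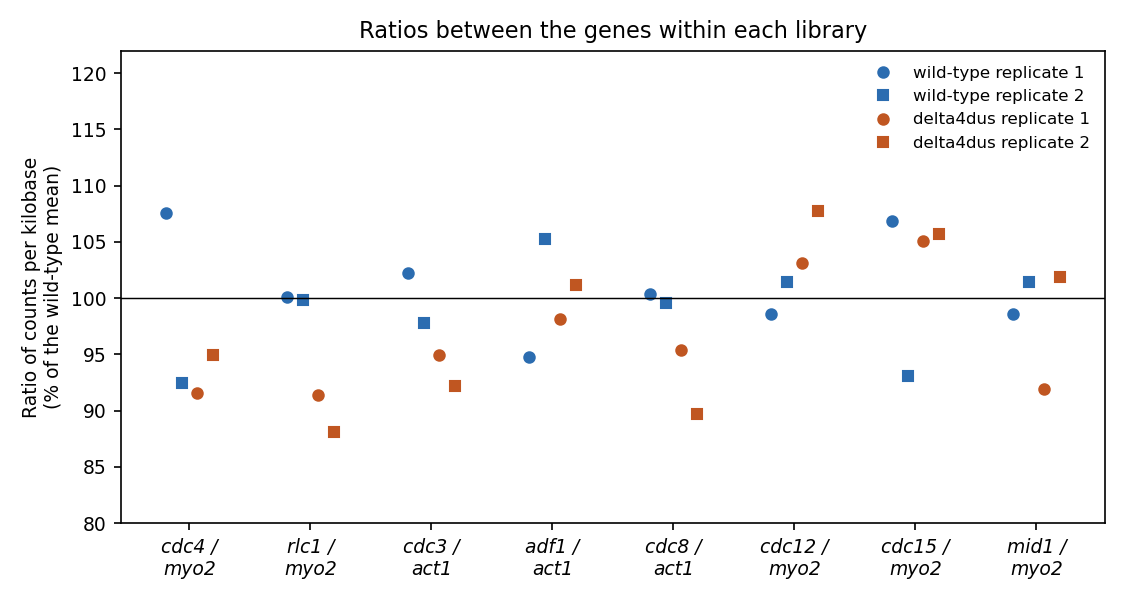
Ratio of counts per kilobase between the gene named first and the gene named second in each library, as a percentage of the wild-type mean, with 1 point per library. The delta4dus points lie below both wild-type points for rlc1 to myo2, cdc3 to act1 and cdc8 to act1, above them for cdc12 to myo2, and overlap with wild-type in the other 4 ratios.

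Among the myosin II subunits, the ratio of rlc1 to myo2 was 0.776 and 0.774 for wild-type, against 0.708 and 0.683 for delta4dus. This was the largest relative gap of the 8 ratios, −10.3% in the mean, and it rests on the member with the fewest reads. The ratio of cdc4 to myo2 was 3.73 and 3.21 for wild-type, against 3.18 and 3.29 for delta4dus, with overlap. Per kilobase of coding sequence the wild-type means were 12.1 for cdc4 to myo2 and 1.60 for rlc1 to myo2, so that rlc1 lay above myo2, and the relative differences between the genotypes were the same. The formin-to-myosin ratio, cdc12 to myo2, was 0.638 and 0.656 for wild-type, against 0.667 and 0.697 for delta4dus, 5.46% higher in the mean. Ratios of cdc15 and mid1 to myo2 overlapped between the genotypes, with wild-type means of 1.82 ± 0.176 and 1.46 ± 0.0290 and delta4dus means of 1.92 ± 0.00823 and 1.41 ± 0.104 (SD, n = 2 libraries each).

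At 5 of the 10 loci no other gene of the count table overlaps the member. Within the others, paa1, a gene on the opposite strand, covers 51.1% of the span of cdc4, and its reads per base were 0.951 of those of cdc4. The library kit preserves strand, but the sources used here do not say whether counting used it. For 377 non-coding RNAs that lie antisense inside coding genes, reads per base had a median of 0.0955 of those of the host gene. The log2 fold change of paa1 was 0.03 (adjusted p = 0.956, edgeR). On the same strand, cwf20 overlaps the deposited model of mid1 by 556 bases and SPAC926.02 overlaps rlc1 by 67 bases. Reads in the bases of such an overlap can come from either gene, so the values of mid1 and rlc1 are uncertain in that respect. If counting ignored strand, the same holds for members with an overlap on the opposite strand, most of all cdc4, with 962 bases. The log2 fold changes were 0.03 for cwf20 and 0.19 for SPAC926.02, and neither passed (adjusted p = 0.967 and 0.713, edgeR). The antisense RNAs SPNCRNA.740 at cdc15 and SPNCRNA.1174 at mid1 had 0.09 and 0.19 (adjusted p = 0.94 and 0.83), and nse3, which overlaps the end of myo2 by 144 bases, had 0.09 (adjusted p = 0.788, all edgeR).

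The members differ in sequence features that the choice of genes did not use. Uridine made up 22.0% of the coding sequence of cdc8, which placed it at percentile 1.39 of 5104 coding sequences, and 33.1% of that of adf1, at percentile 85.8. The median of the 10 was 29.6%, against 30.1% over all coding sequences. Introns are present in 5 of the members, cdc8, cdc3, cdc4, cdc15 and adf1, with 4 of them in cdc4, and in 49.0% of coding genes. The encoded proteins range from 127 residues in profilin to 1841 in the formin.

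Other genes of actin, the ring and septation were examined as 7 lists with 67 genes, all of which passed the filter. None was called by edgeR with genotype as the only term, or by DESeq2. At an unadjusted p under 0.05 in that edgeR fit, 2 were higher and 3 lower, where 3.55% and 4.02% of all genes tested were. Of the 67, 37 had a log2 fold change above 0, the median was 0.01, and the groups did not overlap in 18 lower and 15 higher, against 19.7% and 19.0% of all genes tested. The 2 genes of each list with the smallest p are given, none of which passed in that edgeR fit.

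For the Arp2/3 complex and patch nucleation, 9 of 12 genes were below 0 with a median of −0.06. The subunit genes arc3 and arc4 had log2 fold changes of −0.18 and −0.15 (adjusted p = 0.626 and 0.667, edgeR). All 7 subunit genes of the complex, which were not a list of their own, lay below 0, from −0.18 for arc3 to −0.03 for arc1. Of coding genes tested, 56.5% lay below 0. The genes of this list above 0 were pan1, vrp1 and end4, at 0.14, 0.09 and 0.02. For actin binding and turnover, 3 of 9 were below 0 with a median of 0.02. The capping protein gene acp1 had −0.14 and the twinfilin gene twf1 −0.08 (adjusted p = 0.667 and 0.819, edgeR).

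Formin and polarity genes all had values above 0, from 0.01 for for3, the cable formin, to 0.11 for tea4, which brings For3 to cell tips. The formin partner bud6 had 0.09, and neither tea4 nor bud6 passed (adjusted p = 0.771 and 0.78, edgeR). Of the other myosins and their partners 4 of 7 were below 0. The second myosin II heavy chain gene myp2 had 0.12 and the calmodulin gene cam1 −0.10 (adjusted p = 0.673 and 0.709, edgeR).

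**Figure D4:**
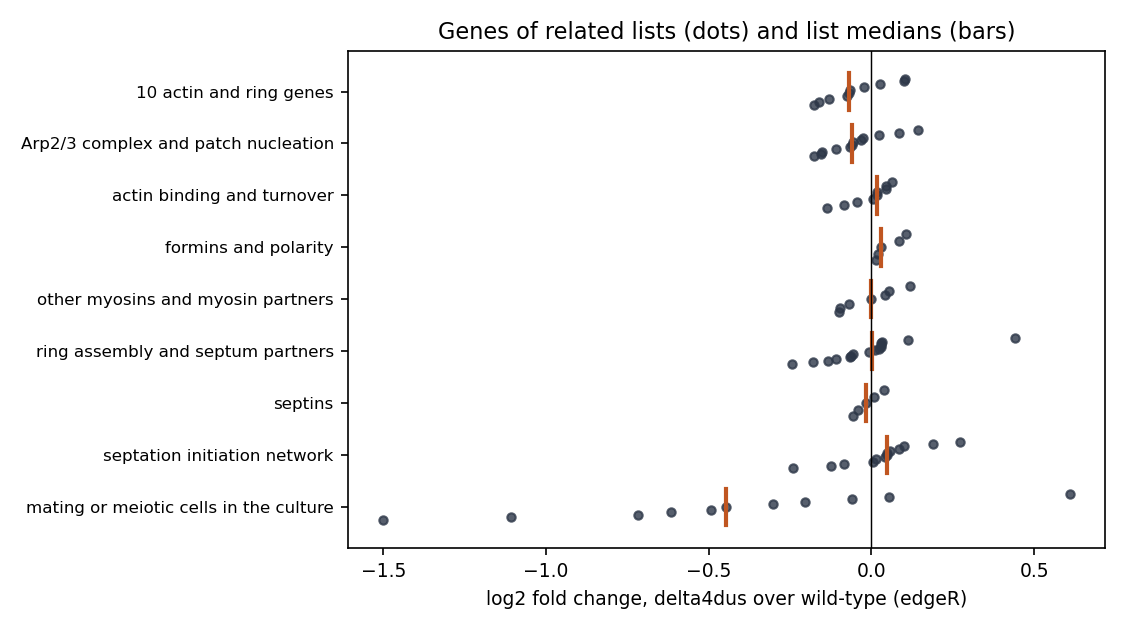
Log2 fold change, delta4dus over wild-type, of each gene (dots) in the group of 10 and in 8 related lists, with the median of each list as a bar. The 7 actin, ring and septation lists have medians between −0.06 and 0.05, and the mating and meiosis list has −0.45.

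Of the ring assembly and septum partners 8 of 16 were below 0. The paxillin-like gene pxl1 had −0.24 and the polarity kinase gene pom1 −0.13 (adjusted p = 0.628 and 0.644, edgeR). The septin list ran from −0.06 for spn4 to 0.04, with spn2 at −0.04 (adjusted p = 0.887 for spn4 and 0.911 for spn2, edgeR). In the septation initiation network, the kinase cascade that starts ring closure, 10 of 13 were above 0. Its gene cdc14 had 0.27 and the GTPase gene spg1 −0.24 (adjusted p = 0.659 and 0.694, edgeR).

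Genes of mating or meiotic cells, which a growing culture can hold, had a lower sum in both delta4dus libraries than in either wild-type library, a difference that was not tested. Their summed normalised counts were 7337 and 5564 for wild-type, against 5448 and 4102 for delta4dus. Within each genotype the sums lay further apart than the nearest sums of the different genotypes. The most abundant gene, ste11, had 3386 and 2188 for wild-type, against 2605 and 1348 for delta4dus, with overlap. All 11 were detected, and 9 were below 0, where the median of the list was −0.45. The genes above 0 were spo6, at 0.61 (adjusted p = 0.638, edgeR), and rec10, at 0.05. Of the 11, 4 were lower and 1 higher without overlap, against 19.7% and 19.0% of all genes tested. The pheromone precursor gene mfm2 had −1.5 and the pheromone receptor gene mam2 −0.72, and neither passed (adjusted p = 0.231 and 0.626, edgeR). DESeq2 called mfm2 (adjusted p = 2.44e-07). Whether these cells bear on the values of the 10 genes was not tested.

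For cdc8 the authors' deposited table lists a log2 fold change of −0.18 with an adjusted p of 0.454, and for cdc3 −0.16 with 0.679. The other 8 members had an adjusted p of 0.999 in the authors' deposited table. For act1 the authors' deposited table has −0.06 with a standard error of 0.0580, against 0.152 in the edgeR fit.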

How the data were processed

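The series holds RNA-seq of 2 wild-type and 2 delta4dus libraries. The deposited count table holds raw counts per gene. Per the submitters' processing notes, the tools were Trimmomatic 0.36, TopHat2 and featureCounts, with the build ASM294v2. The sources used here do not give the counting options. The authors' deposited table holds a mean normalised signal, log2 fold changes with their errors, a test score and p-values; DESeq2 is named in the submitters' processing notes.

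Here edgeR 4.0.16 (R 4.3.3) tested counts across all genes. Genes were kept by filterByExpr (minimum count 10, minimum total 15), scaled by TMM and fitted with a robust quasi-likelihood model with genotype as its term on all 4 libraries (2 residual degrees of freedom, two-sided, Benjamini-Hochberg over all genes tested, adjusted p under 0.05). Normalised counts are counts over the TMM-based relative library size. Depth was 264948323 to 495098038 counts per library in all, and 40203853 to 59273688 without ribosomal RNA genes. Precision follows from the spread between libraries and from the dispersion that the fit shares across genes. Intervals are 95% intervals. Reads carry no molecular identifiers. DESeq2 1.42.0 and the other alternatives are in the closing section. The fit was tested on simulated data.

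Names matched RefSeq's ASM294v3 for 6844 of 7049 genes. Deposited coordinates are those of ASM294v2. Promoters and coding sequences were read from ASM294v3 with its own annotation.

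The 10 genes and the lists were chosen with earlier results of these data known. The text names the 10 genes, list genes past the threshold or else the 2 with the smallest p in each list, genes overlapping a member and the deleted genes. Some genes were chosen after their values were seen. They are those given for a list's range, arc1, for3, pan1, vrp1, end4, ste11, spo6, rec10, and not1 among the promoters.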

Additional observations from a re-analysis of the deposited data

How the results depend on the processing

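Of 11 alternatives, 10 called none of the 10 genes. The replicate number as a block called 2, cdc8 (log2 fold change −0.18, adjusted p = 0.00326, edgeR) and cdc3 (−0.16, adjusted p = 0.00928, edgeR). It also called 12 list genes, among 825 calls over the genome, 12.1% of genes tested. Those list genes were arc3, arc4, arc5, pxl1, rga7, pom1, spg1, ste11, mei2, spo6, mam2 and mfm2. No label calls the replicate numbers pairs. Deviations from the genotype means of libraries with equal numbers correlated at 0.635 over 6813 genes. DESeq2 called 52 genes over the genome and 1 list gene, mfm2. Leaving out single libraries gave 3 to 5 calls over the genome, 3 without wild-type replicate 2.

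Library totals alone moved the median of all genes to −0.42 and that of the 10 genes to −0.49. Signs then turned for cdc12 (−0.32), myo2 (−0.38), cdc15 (−0.31), tea4 (−0.32), bud6 (−0.32), myp2 (−0.30), cdc14 (−0.15), paa1 (−0.41), nse3 (−0.33), SPNCRNA.740 (−0.30), SPNCRNA.1174 (−0.22), cwf20 (−0.42) and SPAC926.02 (−0.25). Relative to the shifted median, cdc12 was at 0.11, cdc15 at 0.11 and myo2 at 0.04.

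Without single libraries the sign changed for cdc4 (−0.156 to 0.0119, without wild-type replicate 1), myo2 (−0.0266 to 0.0727, without replicate 1 of either genotype), mid1 (−0.0691 to 0.0232, without wild-type replicate 2 or delta4dus replicate 1), paa1 (−0.0625 to 0.128, without wild-type replicate 1 or delta4dus replicate 2), SPNCRNA.740 (−0.12 to 0.27, without wild-type replicate 2 or delta4dus replicate 1) and cwf20 (−0.11 to 0.16, without delta4dus replicate 2). The values of cdc8 (−0.21 to −0.15) and cdc3 (−0.21 to −0.12) stayed below 0.

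With coding length, 8 of 10 genes kept their level rank, and the wild-type ratios became 12.1 for cdc4, 1.60 for rlc1, 0.630 for cdc12, 2.06 for cdc15 and 1.92 for mid1 to myo2, and 0.235 for cdc3 and 0.186 for cdc8 to act1. Only the gene lengths differ there. RLE scaling, no filter, leaving out ribosomal RNA genes and coding genes alone changed no sign or call among the 10 genes, the 2 genes with the smallest p in each list and the overlapping genes, except that SPNCRNA.740 and SPNCRNA.1174 have no value with coding genes alone. The deleted genes, arc1, for3, pan1, vrp1, end4 and rec10 were not followed through the alternatives. For arc5, rga7, ste11, mei2 and spo6 only the calls were followed. The cause of the other changes was not tested. Of the 10 genes rlc1 had the fewest reads, 741 to 1192 per library.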
